A study of Rattus norvegicus with 16 samples.

Results

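The comparison described here is that of microglia from rats irradiated 6 weeks earlier with microglia from sham-irradiated rats, both injected with the vehicle PBS, without LPS. It uses 8 of the 16 libraries of the study, chosen by their labels alone: 4 irradiated and 4 sham. RNA was sequenced in bulk from microglia that had been sorted from the whole brain of male Wistar (Hsd/Cpb:WU) rats by flow cytometry. The irradiated rats had received 14 Gy of X-rays and the sham rats a mock procedure, and every rat of both groups then received an intraperitoneal injection of phosphate-buffered saline (PBS). Another 8 libraries, 4 sham and 4 irradiated, came from rats injected with bacterial lipopolysaccharide (LPS) in place of PBS, and they are used here only where the irradiation effect is read a second time. Age, the field and fractionation of the irradiation, and the interval from injection to collection were not given in the sources used here. Animals are not named in the labels, and the p-values therefore speak only of the spread between samples, which may be technical.

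Microglia are the resident macrophages of the brain, seeded in the embryo and maintained by signalling through the receptor CSF1R and by TGF-beta. In the healthy brain they express a homeostatic set of genes, such as the purinergic receptor P2RY12 and the transcription factor SALL1. Ageing, neurodegeneration or a past insult can leave them primed, a state with lower homeostatic genes and higher genes of phagocytosis, antigen presentation and inflammation, in which a later stimulus can evoke a larger response.

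The sort gate kept cells negative for the dead-cell dye DAPI, high for CD11b and intermediate for CD45. The gene of CD11b, Itgam, measured 309, 665, 473 and 431 CPM in sham and 549.8, 611, 799.5 and 619.5 CPM in irradiated libraries and was not called different (0.46 ± 0.20 on the log2 scale, edgeR adjusted p = 0.119). That call depended on the setting: Itgam was called higher with library totals as the only scaling (edgeR adjusted p = 0.033), with replicate numbers as a block (0.0339) and without sham library 2 (0.0147). Ptprc, the gene of CD45, measured 520.5, 532, 588 and 525 CPM in sham and 771, 796, 845 and 718 CPM in irradiated libraries and rose 1.45-fold. Tmem119, Cx3cr1 and Csf1r, markers of microglia, were abundant in all 8 libraries, with values given below.

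Library totals ran from 16523044 to 22063345 counts in sham and from 13990623 to 24444248 counts in irradiated samples. Mitochondrial transcripts made up 0.6225% to 0.7022% of the sham counts and 0.8849% to 1.349% of the irradiated counts, and the 10 most abundant genes 17.56% to 17.96% and 14.62% to 15.04%. Irradiated library 1 stood apart: it had the highest mitochondrial share, the smallest total, and neuron markers that summed to 95.22 CPM, against 17.25 to 44.87 CPM in the other irradiated libraries and 13.66 to 19.46 CPM in sham. Counts that moved without it are therefore given below with and without it or in a summary sentence.

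Between irradiated and sham libraries 2754 of 12308 genes (22.4%) differed at an adjusted p under 0.05 in edgeR's quasi-likelihood test. Of these 1453 (11.8% of the genes tested) were higher and 1301 (10.6%) lower. Counts of list members below are to be read against these shares. The lists were chosen with earlier results of these data known, so an excess over these shares describes a list and is no test of it. Of the changes past 2-fold most were increases: 849 genes (6.9%) rose at least 2-fold, whereas 194 (1.58%) fell at least 2-fold. The groups did not overlap in CPM (the count of a gene as a share of the library, scaled to a common total) for 1745 genes (14.2%) that were higher and 1672 (13.6%) that were lower. Without irradiated library 1 the calls numbered 2201, 1271 higher and 930 lower, and 2138 of these genes (77.6% of the calls of all 8 libraries) were called with it as well. The split between higher and lower depended on the scaling. CPM were scaled here by TMM factors, which assume that most genes do not change. With library totals as the only scaling 2254 genes were higher and 685 lower, so that 76.7% of the calls were higher against 52.8% with TMM, and the median gene shifted by 0.163 on the log2 scale. Directions of small changes are relative to that choice. Because the samples are bulk, a change in the number of cells that express a gene and a change in its RNA per cell cannot be told apart.

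**Figure D1:**
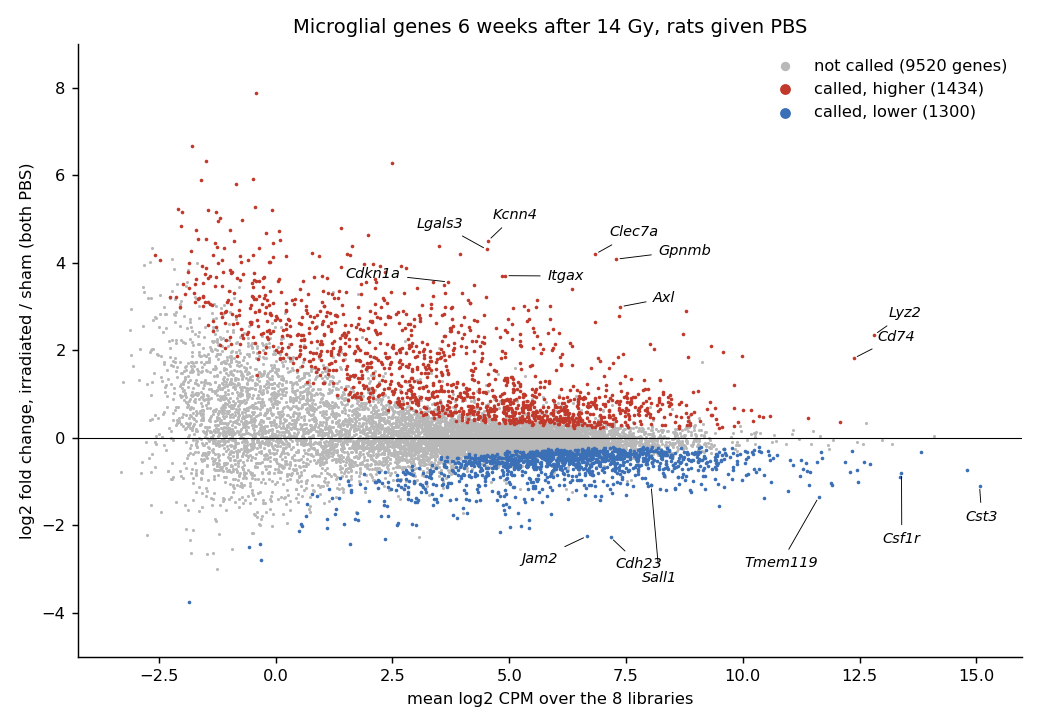
Mean expression (log2 CPM over the 8 libraries, x axis) against the irradiation effect with PBS (log2 fold change, irradiated over sham, y axis), 1 point per gene. Of the genes drawn 1434 were called higher and 1300 lower, and 54 genes at 0 in all libraries of a group are not drawn. The increases reach further from 0 than the decreases, of which 194 were at least 2-fold.

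Most genes of the homeostatic surface and secreted set fell. Of 30 genes listed 26 passed the filter on low counts, and 23 of these fell and 0 rose, against 10.6% and 11.8% of all genes tested. Their median log2 fold change was -0.88, where the median over all genes tested was -0.01. Without irradiated library 1 the set had 21 falls and a median of -0.81. Tmem119 (ENSRNOG00000000700), a membrane protein used as a marker of microglia, measured 4921, 4632, 6621 and 4362 CPM in the 4 sham libraries and 1462, 2519, 2293 and 1784 CPM in the 4 irradiated libraries. It fell by 1.35 ± 0.19 on the log2 scale (edgeR adjusted p = 7.09e-05). All 4 irradiated libraries lay below all 4 sham libraries. P2ry13, a purinergic receptor of microglial processes, measured 2078, 2085, 2675 and 2247 CPM in the 4 sham libraries and 692, 932, 942 and 920.1 CPM in the 4 irradiated libraries. It fell by 1.38 ± 0.11 on the log2 scale (edgeR adjusted p = 5.9e-08), and irradiated library 1 was the lowest of the irradiated group. Cst3, the secreted protease inhibitor cystatin C, fell from 50210 ± 2458 to 23580 ± 2506 CPM (mean ± SD, n = 4 per group). Summed over the genes tested, the set took 130700 to 138100 CPM of the sham libraries and 59400, 68860, 74550 and 69910 CPM of the irradiated libraries 1 to 4. Cx3cr1 (ENSRNOG00000018509), the receptor for the neuronal chemokine fractalkine, measured 13820, 14770, 14930 and 14490 CPM in sham and 6858, 7922, 8360 and 7908 CPM in irradiated libraries, again with no overlap. Vsir, the immune checkpoint VISTA, fell from 3251 ± 113 to 1784 ± 157 CPM, a decrease of 1.82-fold.

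Genes of CSF and TGF-beta signalling did not all move in the same direction. Csf1r (ENSRNOG00000018414), the receptor for CSF1 and IL-34 on which microglia depend, measured 13600, 14440, 14270 and 14630 CPM in the 4 sham libraries and 7489, 8516, 8758 and 7961 CPM in the 4 irradiated libraries. It fell by 0.80 ± 0.07 on the log2 scale (edgeR adjusted p = 2.59e-07), with no overlap between the groups. Csf2ra, the alpha chain of the GM-CSF receptor, went from 79.3 ± 7.90 to 213 ± 11.7 CPM, with no overlap between the groups, a rise of 2.69-fold (edgeR adjusted p = 9.6e-09). Flt3, a cytokine receptor of dendritic cells and progenitors, rose 3.58-fold and Csf3r, the receptor for G-CSF, fell 1.55-fold. Of the 9 genes tested in this list of receptors and ligands 4 rose and 2 fell, with a median of 0.29. In the TGF-beta pathway 3 of 19 genes fell (15.8%) and 1 rose (5.26%), against 10.6% and 11.8% of all genes tested (median -0.24). Without irradiated library 1 the pathway had 3 falls and 0 increases. Tgfbr1, the type I receptor that transmits TGF-beta signals, measured 3904, 4175, 3903 and 3921 CPM in sham and 1645, 2229, 1806 and 1879 CPM in irradiated libraries, and fell 2.10-fold. Eng, the co-receptor endoglin, fell 2.13-fold, from 294 ± 18.5 to 138 ± 18.5 CPM.

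Among 19 transcription factors of macrophage identity 7 fell and 3 rose, with a median of -0.24. The members did not move as one. Sall1 (ENSRNOG00000013907), a repressor that in the brain marks microglia and not other macrophages, measured 369.5, 399, 384 and 377 CPM in the 4 sham libraries and 166, 185, 182 and 189 CPM in the 4 irradiated libraries. It fell by 1.08 ± 0.10 on the log2 scale (edgeR adjusted p = 3.44e-07). All 4 irradiated libraries lay below the lowest sham library for this gene. Mef2c, which restrains microglial activation, fell 1.38-fold and Etv5 fell 1.46-fold. Irf8, a factor needed for microglial development, was at 448 ± 50.1 CPM in sham and 393 ± 25.4 CPM in irradiated libraries and was not called (edgeR adjusted p = 0.293). Spi1, which encodes PU.1, varied widely within both groups, with 11.2, 27.8, 35.5 and 78.2 CPM in sham and 38.2, 32.5, 125 and 76.3 CPM in irradiated libraries (edgeR adjusted p = 0.467).

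**Figure D2:**
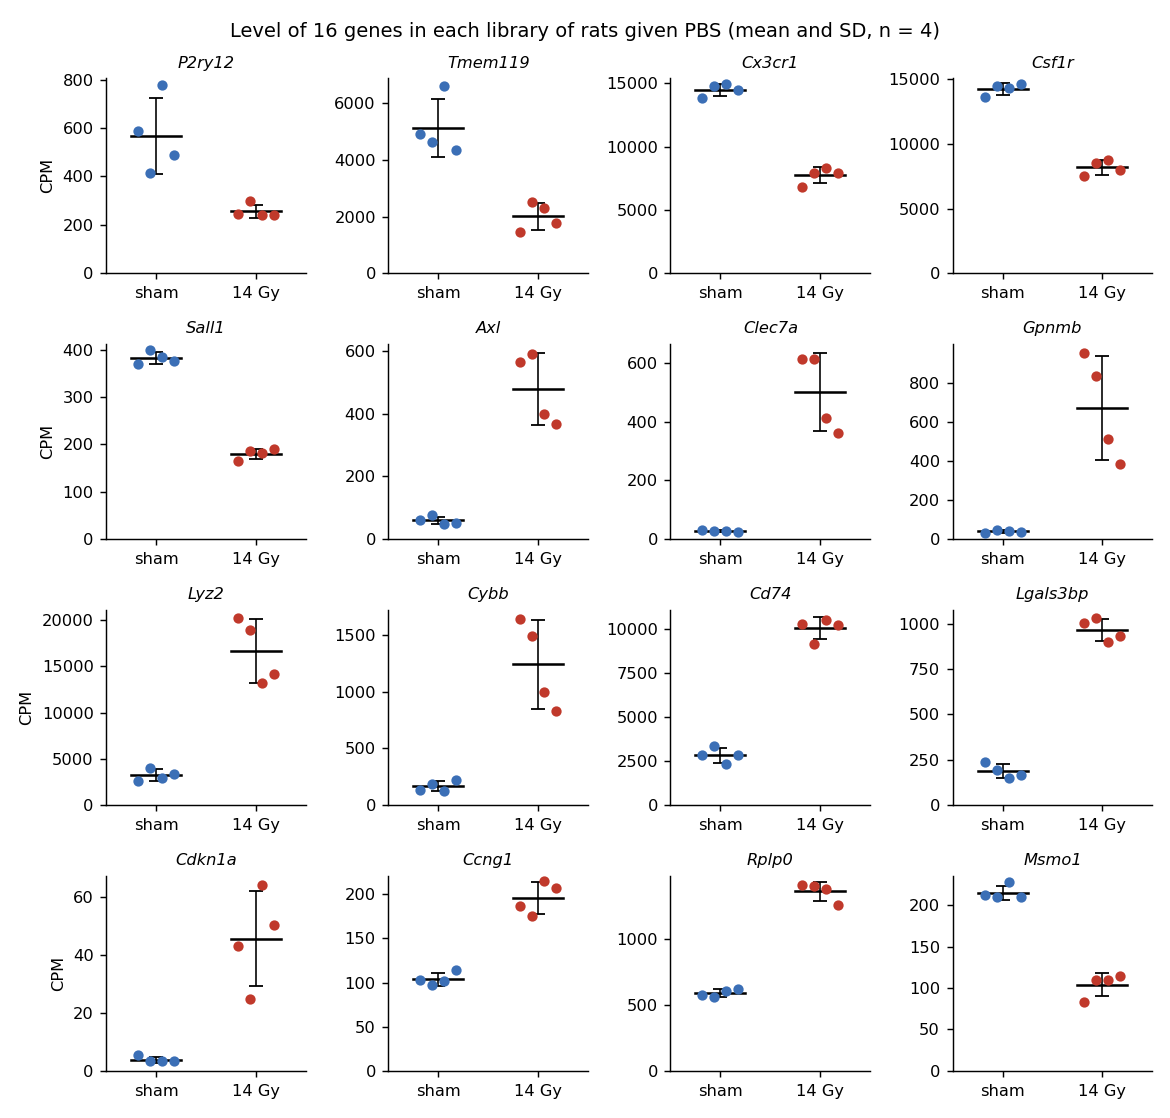
Level (CPM, y axis from 0) of 16 genes in each of the 4 sham (blue) and 4 irradiated (red) libraries of rats given PBS, with the mean (bar) and SD. Tmem119, Csf1r, Sall1 and Msmo1 lie lower and Clec7a, Gpnmb, Cd74, Lgals3bp and Rplp0 higher in all 4 irradiated libraries, as does Axl, where sham reached 76.8 CPM and irradiated libraries began at 366 CPM.

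Genes of primed and disease-associated microglia went the other way. Of 27 tested 14 rose and 5 fell, with a median of 0.70, and the counts were the same without irradiated library 1. Lyz2 (ENSRNOG00000005825), the macrophage lysozyme, measured 2583, 4060, 2892 and 3412 CPM in the 4 sham libraries and 20200, 18900, 13180 and 14160 CPM in the 4 irradiated libraries. It rose 5.13-fold (2.36 ± 0.16 on the log2 scale, edgeR adjusted p = 1.85e-08). Cybb, the catalytic subunit of the phagocyte NADPH oxidase, measured 129.8, 187, 128 and 219.5 CPM in the 4 sham libraries and 1646, 1494, 1001 and 828 CPM in the 4 irradiated libraries. It rose 7.47-fold (2.90 ± 0.21 on the log2 scale, edgeR adjusted p = 9.52e-08). For both genes the lowest irradiated library was far above the highest sham library. Cd68, an endolysosomal glycoprotein of phagocytes, rose 4.40-fold from 124 ± 5.78 to 545 ± 82.4 CPM. Clec7a (ENSRNOG00000054251), the beta-glucan receptor dectin-1, measured 29.9, 26.6, 28.6 and 23.5 CPM in sham and 612, 614, 410.4 and 362 CPM in irradiated libraries, and Gpnmb (ENSRNOG00000008816), a glycoprotein of lipid-laden and phagocytic macrophages, 34.3, 47.4, 41.6 and 34.7 CPM and 952, 835, 513 and 384 CPM. The lowest irradiated library exceeded the highest sham library many times over for both. Itgax, which encodes the integrin CD11c, rose 13.1-fold from 8.50 ± 1.90 to 111 ± 27.8 CPM. Genes of this set did not all rise: Trem2, the lipid-sensing receptor of microglia, measured 1523, 1568, 1637 and 1448 CPM in sham and 794, 928, 1086 and 989 CPM in irradiated libraries and fell 1.63-fold, while its adaptor Tyrobp rose 1.21-fold. Apoe, the lipid carrier, fell by 0.31 ± 0.09 on the log2 scale (edgeR adjusted p = 0.0129), and the call was lost with library totals as the only scaling (edgeR adjusted p = 0.179) and without irradiated library 2 (0.0605). Spp1, osteopontin, was near the detection limit in both groups, with 0.684, 0, 0 and 0.504 CPM in sham and 1.71, 0.567, 0.639 and 1.64 CPM in irradiated libraries, and was not called.

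The receptors with which microglia take up debris moved in both directions. Of 20 phagocytic, Fc and scavenger receptor genes 9 rose and 5 fell (median 0.31). Axl, a TAM receptor tyrosine kinase for apoptotic cells, measured 60.1, 76.8, 49.9 and 53.2 CPM in the 4 sham libraries and 563, 591, 398 and 366 CPM in the 4 irradiated libraries. It rose 7.99-fold (3.00 ± 0.23 on the log2 scale, edgeR adjusted p = 2.53e-07). Mertk, the TAM receptor of resting microglia, measured 937, 1154, 1075 and 923 CPM in sham and 449.7, 483, 574 and 467 CPM in irradiated libraries, a fall of 1.05 ± 0.12 on the log2 scale (edgeR adjusted p = 3.03e-06). The related receptors thus changed in opposite directions in the same libraries. Msr1, a scavenger receptor for modified lipoproteins, rose 7.78-fold from 12.2 ± 2.18 to 95.1 ± 17.9 CPM, and Fcgr1a, the high-affinity IgG receptor, rose 1.79-fold. Of 19 complement genes 5 rose and 4 fell (median 0.25), and 0 fell with library totals as the only scaling. C1qc, a chain of the recognition molecule C1q, rose 1.30-fold, and Cd59, which blocks the membrane attack complex, rose 5.71-fold from 11.2 ± 3.50 to 63.7 ± 7.26 CPM.

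The largest changes of all genes, taken by rule among called genes whose log2 CPM averaged 3 or more and whose groups did not overlap, included several membrane and secreted proteins. Kcnn4 (ENSRNOG00000019440), the calcium-activated potassium channel KCa3.1 of activated microglia, measured 5.72, 6.18, 5.23 and 2.92 CPM in the 4 sham libraries and 144, 128, 91.4 and 93.0 CPM in the 4 irradiated libraries. It rose 22.8-fold (4.51 ± 0.24 on the log2 scale, edgeR adjusted p = 2.39e-09). Atp8b4, a putative lipid flippase subunit, rose 11.2-fold and Spon1, the matrix protein spondin 1, 10.8-fold. Plscr2, a phospholipid scramblase, rose 9.97-fold from 3.86 ± 0.325 to 38.6 ± 3.12 CPM. Plau, the secreted protease urokinase, measured 27.7, 31.6, 16.8 and 27.9 CPM in sham and 399, 287, 228 and 178 CPM in irradiated libraries, and its receptor Plaur 2.74, 1.28, 3.25 and 2.67 CPM and 60.5, 57.4, 47.3 and 42.8 CPM. A ligand and its receptor were thus higher in every irradiated library than in any sham library. The largest fall was that of Cdh23 (ENSRNOG00000033087), an atypical cadherin that measured 296, 331, 338 and 312 CPM in the 4 sham libraries and 57.3, 58.6, 62.8 and 84.9 CPM in the 4 irradiated libraries. It fell by 2.27 ± 0.14 on the log2 scale (edgeR adjusted p = 4.82e-09). Jam2, a junctional adhesion molecule, fell 4.75-fold from 221 ± 10.9 to 46.6 ± 8.10 CPM, Pla2g7, a secreted phospholipase that degrades platelet-activating factor, fell 3.33-fold, and Mmp28, a matrix metalloproteinase, fell 4.03-fold. Kcnj15, an inward rectifier potassium channel, fell 4.09-fold, and the ATP-gated channel P2rx7 fell 1.501-fold while P2rx4 rose 2.01-fold. Over 19 potassium and calcium channel genes 2 rose (10.5%) and 3 fell (15.8%), against 11.8% and 10.6% of all genes tested (median 0.07). With library totals as the only scaling 4 rose and 3 fell (median 0.23).

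Antigen presentation by MHC class II rests on a small set of genes that share a promoter module, the W, X and Y boxes, on which the co-activator CIITA assembles. The Y box is a reversed CCAAT motif, searched here as TGATTGG on both strands. Promoters of the class II genes RT1-Da, RT1-Ba and RT1-Db1, alpha and beta chains among the members with the smallest p, are shown because those genes rose together, from 150 bases before the annotated start to the base before it (RefSeq, build GRCr8, 5′ to 3′ in the direction of the gene, with the motif in capitals). They lie at chr20:4515265-4515414 on the plus strand, chr20:4576907-4577056 on the plus strand and chr20:4560163-4560312 on the minus strand.
RT1-Da: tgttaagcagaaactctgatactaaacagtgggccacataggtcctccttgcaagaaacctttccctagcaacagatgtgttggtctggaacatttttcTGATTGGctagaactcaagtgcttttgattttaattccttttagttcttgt
RT1-Ba: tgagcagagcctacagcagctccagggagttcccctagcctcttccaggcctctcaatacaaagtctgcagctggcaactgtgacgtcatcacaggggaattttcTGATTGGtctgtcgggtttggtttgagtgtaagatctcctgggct
RT1-Db1: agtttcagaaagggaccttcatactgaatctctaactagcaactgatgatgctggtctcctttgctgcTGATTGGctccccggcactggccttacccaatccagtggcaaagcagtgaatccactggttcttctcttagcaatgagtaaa
The motif begins 51, 45 and 82 bases before the start. Of 13 class II genes with a promoter of 300 bases (250 before the start and 50 after) 8 held it (61.5%), against 2008 of 27457 promoters (7.31%). It was found in 5 of 7 members called higher and in 3 of 6 that were not. A match is a description of the sequence and no evidence of binding.

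Of 15 class II genes 8 rose and 1 fell, with a median of 1.35. Cd74 (ENSRNOG00000018735), the invariant chain that guides class II molecules to endosomes, measured 2864, 3355, 2315 and 2851 CPM in the 4 sham libraries and 10330, 9157, 10510 and 10270 CPM in the 4 irradiated libraries. It rose 3.54-fold (1.82 ± 0.15 on the log2 scale, edgeR adjusted p = 1.87e-07). The chains followed it: RT1-Da measured 525, 561, 538 and 496 CPM in sham and 1893, 1781, 2117 and 1990 CPM in irradiated libraries, RT1-Ba rose 3.59-fold and RT1-Db1 3.92-fold. Reads of RT1 genes can be split between near-identical copies, so single members of the family are uncertain. Ciita, the co-activator of the module, was low but separated, with 3.86, 4.45, 1.84 and 3.18 CPM in sham and 17.5, 12.2, 20.6 and 13.1 CPM in irradiated libraries (edgeR adjusted p = 0.000257). Ifi30, a lysosomal thiol reductase that prepares antigens, rose 1.67-fold. The 1 member that fell was Ctss, the protease cathepsin S that trims the invariant chain: it measured 36420, 36010, 37350 and 38120 CPM in sham and 19880, 21650, 23550 and 23420 CPM in irradiated libraries. Class II genes are also expressed by border-associated macrophages and dendritic cells, whose markers are given below, and their part in the result was not tested. Among 13 genes of MHC class I loading and the immunoproteasome 6 rose and 3 fell (median 0.37). Psmb9 and Psmb8, catalytic subunits of the immunoproteasome, rose 1.64-fold and 1.53-fold, and Canx, a chaperone of the endoplasmic reticulum, fell 1.41-fold. Of 15 checkpoint and co-stimulation genes 4 rose and 5 fell (median -0.18). Tnfsf9, the ligand of 4-1BB, rose 4.51-fold, Lgals9, galectin-9, rose 3.94-fold from 14.6 ± 3.07 to 57.6 ± 5.26 CPM, and Havcr2, which encodes TIM-3, measured 761, 741, 696 and 647 CPM in sham and 263, 319.5, 358 and 303 CPM in irradiated libraries, a fall of 1.19 ± 0.12 on the log2 scale.

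Type I interferon signalling ends at the factor ISGF3, which binds the interferon-stimulated response element (ISRE), searched here as GAAA and GAAA with any 2 bases between them, on both strands. The promoters of Lgals3bp, Ifi44l and Oas1a, the interferon response genes with the smallest p, are shown in the same way, with the motif in capitals. They lie at chr10:104127849-104127998 on the minus strand, chr2:243328573-243328722 on the plus strand and chr12:41330316-41330465 on the plus strand.
Lgals3bp: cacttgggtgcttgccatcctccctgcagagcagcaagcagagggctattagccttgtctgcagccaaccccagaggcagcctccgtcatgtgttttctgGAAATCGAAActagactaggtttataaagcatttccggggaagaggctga
Ifi44l: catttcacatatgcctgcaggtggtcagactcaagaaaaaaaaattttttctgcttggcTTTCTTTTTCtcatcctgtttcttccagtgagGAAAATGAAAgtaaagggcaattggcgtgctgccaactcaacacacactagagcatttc
Oas1a: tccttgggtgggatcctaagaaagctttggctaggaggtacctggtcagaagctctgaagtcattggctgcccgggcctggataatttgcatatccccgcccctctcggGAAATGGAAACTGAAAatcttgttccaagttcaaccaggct
The motif begins 50 bases before the start of Lgals3bp, 91 and 59 bases before that of Ifi44l, and 41 and 35 bases before that of Oas1a, where the matches overlap. Of 29 interferon response genes with a promoter in that RefSeq set, 18 held the motif (62.1%), 12 of 17 called higher and 6 of 12 not called higher. Over all 27457 promoters 1034 held it (3.77%).

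Of 40 type I interferon response genes 24 rose and 0 fell, with a median of 0.98. When irradiated library 1 was left out 19 rose, with a median of 1.00. Lgals3bp (ENSRNOG00000003217), a secreted galectin-binding glycoprotein, measured 239, 195, 149.6 and 166 CPM in the 4 sham libraries and 1005, 1032, 898 and 935 CPM in the 4 irradiated libraries. It rose 5.16-fold (2.37 ± 0.14 on the log2 scale, edgeR adjusted p = 2.85e-09). Ifi44l measured 8.77, 7.51, 2.92 and 8.07 CPM in sham and 38.5, 42.0, 24.2 and 39.9 CPM in irradiated libraries and rose 5.32-fold. Oas1a, an enzyme that senses double-stranded RNA, measured 4.17, 5.83, 1.37 and 3.68 CPM and 31.5, 31.8, 21.5 and 32.3 CPM, and irradiated library 3 was the lowest of its group. The groups did not overlap for any of these 3 genes. The increase was smaller for Sp100, a nuclear body protein, at 1.41-fold. Among the largest increases of all genes was Ifitm1, an interferon-induced membrane protein that restricts viruses, with 5.97, 7.62, 3.82 and 5.54 CPM in sham and 63.9, 76.5, 60.9 and 56.5 CPM in irradiated libraries. Of 14 genes inducible by interferon-gamma 6 rose and 1 fell (median 0.41). Their summed level went the other way, with 3997 to 4432 CPM in sham and 3118 to 3445 CPM in irradiated libraries.

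Chemokines, which recruit leukocytes, rose in 11 of 18 cases with 0 falls and a median of 1.94, with the same count without irradiated library 1. Cxcl16, a membrane-bound chemokine and scavenger receptor, measured 156, 129, 159 and 108 CPM in the 4 sham libraries and 656, 679, 439 and 484 CPM in the 4 irradiated libraries. It rose 4.08-fold (2.03 ± 0.17 on the log2 scale, edgeR adjusted p = 1.87e-07). Cxcl9, a ligand of CXCR3, measured 0.249, 1.89, 1.23 and 1.11 CPM in sham and 8.18, 10.6, 17.8 and 15.4 CPM in irradiated libraries, and its receptor Cxcr3, 3.17, 1.79, 1.70 and 2.22 CPM and 12.9, 9.93, 10.2 and 7.06 CPM. Both rose, Cxcl9 11.4-fold and Cxcr3 4.53-fold. Cxcl1, a neutrophil attractant, had 0 counts in all 4 sham libraries and 2.92, 1.30, 0.786 and 1.90 CPM in irradiated libraries, at least 44.1-fold higher against a floor of 3 counts over the sham group. Its call was lost with limma voom (adjusted p = 0.124). Ccl2, a monocyte attractant, did not pass the test, with 8.71, 10.7, 9.52 and 3.68 CPM in sham and 15.5, 17.0, 7.37 and 16.4 CPM in irradiated libraries. Of 27 cytokine, NF-kB and inflammasome genes 5 rose (18.5%) and 3 fell (11.1%), against 11.8% and 10.6% of all genes tested (median 0.22). The count of increases was 8 with DESeq2 and 9 with library totals as the only scaling. Il1b, the cytokine interleukin-1 beta, measured 21.6, 22.9, 25.96 and 23.0 CPM in sham and 56.3, 46.9, 60.0 and 63.6 CPM in irradiated libraries and rose 2.42-fold (edgeR adjusted p = 0.00362). Its antagonist Il1rn rose 11.8-fold from 1.15 ± 0.517 to 13.6 ± 5.28 CPM. Tnf did not pass the test, with 53.2, 34.2, 42.7 and 41.1 CPM in sham and 27.0, 29.8, 59.2 and 59.3 CPM in irradiated libraries. Il6, chosen after its values were seen, went down: it measured 27.9, 13.6, 14.9 and 10.7 CPM in sham and 6.03, 3.46, 10.7 and 7.43 CPM in irradiated libraries, a fall of 1.27 ± 0.31 on the log2 scale (edgeR adjusted p = 0.00543). Pattern recognition genes were divided, with 7 of 25 higher and 7 lower (median 0.04). Cd14, the LPS co-receptor, measured 36.3, 59.8, 48.9 and 20.2 CPM in sham and 113, 189, 202 and 206 CPM in irradiated libraries, Tlr8, an endosomal RNA sensor, rose 7.96-fold, and Tlr2, a lipoprotein receptor, fell 1.72-fold from 1640 ± 51.9 to 956 ± 148 CPM. Tlr4, the LPS receptor, did not pass the test, at 117 ± 21.8 CPM in sham and 119.8 ± 19.7 CPM in irradiated libraries (0.04 ± 0.14 on the log2 scale, edgeR adjusted p = 0.887).

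Irradiation breaks DNA and activates p53, whose target genes halt the cell cycle or start apoptosis. At 6 weeks 8 of 28 p53 target genes were higher and 1 lower, with a median of 0.32, and 13 were higher when only the 8 libraries compared were fitted. Cdkn1a (ENSRNOG00000000521), the inhibitor p21 of cyclin-dependent kinases, measured 5.35, 3.42, 3.44 and 3.28 CPM in the 4 sham libraries and 43.1, 24.7, 64.0 and 50.1 CPM in the 4 irradiated libraries. It rose 11.8-fold (3.56 ± 0.27 on the log2 scale, edgeR adjusted p = 7.82e-08). Irradiated libraries differed among themselves, and sham library 1 was the highest of the sham group. Ccng1, cyclin G1, measured 102, 97.1, 101 and 114 CPM in sham and 187, 175, 215 and 207 CPM in irradiated libraries and rose 1.89-fold. Pmaip1, the pro-apoptotic protein NOXA, rose 6.39-fold and Fas, a death receptor, 4.78-fold. Mdm2, the p53 ubiquitin ligase and itself a target, did not pass the test, with 108, 111, 111 and 115 CPM in sham and 94.2, 98.9, 84.9 and 106 CPM in irradiated libraries (-0.21 ± 0.09 on the log2 scale, edgeR adjusted p = 0.0866), and was called lower with limma voom (adjusted p = 0.0496). Of 28 genes of DNA repair and damage sensing 0 rose and 2 fell, Xrcc5 and Parp1, with a median of 0.07, and both calls were lost with library totals as the only scaling (edgeR adjusted p = 0.108 and 0.335), by which 4 genes of the list were higher and 0 lower (median 0.23). Parp1 was also lost without sham library 2 (edgeR adjusted p = 0.0962) and without any 1 of the irradiated libraries (0.0535 to 0.076). Cdkn2a, which encodes the senescence marker p16 and was chosen after its values were seen, had 0.0622, 0, 0 and 0 CPM in sham and 0.317, 0.454, 0.786 and 0.520 CPM in irradiated libraries, so 3 of 4 sham libraries held no read of it. Among senescence-linked and secreted factors 9 of 17 rose with 0 falls (median 1.96). Mmp12, macrophage elastase, rose 14.8-fold from 1.87 ± 0.971 to 27.4 ± 9.09 CPM, Hgf, hepatocyte growth factor, rose 13.0-fold, and Timp1, an inhibitor of metalloproteinases, 3.04-fold.

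Of 40 genes of the cell cycle 16 rose and 3 fell (median 0.54). Ccnb2, a cyclin of mitosis, measured 1.93, 2.45, 3.39 and 2.67 CPM in the 4 sham libraries and 6.85, 8.34, 11.2 and 8.40 CPM in the 4 irradiated libraries. It rose 3.32-fold (1.73 ± 0.26 on the log2 scale, edgeR adjusted p = 8.85e-05). Cenpa, a histone of the centromere, rose 2.48-fold from 4.62 ± 1.26 to 11.5 ± 0.695 CPM. Mki67, the proliferation marker, measured 7.03, 17.7, 22.4 and 11.3 CPM in sham and 20.8, 19.6, 16.2 and 14.2 CPM in irradiated libraries and was not called (edgeR adjusted p = 0.576). The mitotic kinase genes Aurka and Ttk went down: Aurka fell 1.74-fold from 159.5 ± 8.14 to 91.9 ± 16.9 CPM, and Ttk fell 2.23-fold. Ezh2, the methyltransferase of Polycomb, rose 2.11-fold from 6.63 ± 1.30 to 13.9 ± 2.09 CPM, and Kdm6a, a demethylase of the same histone mark, fell 1.80-fold. Of 31 chromatin regulators 3 rose (9.68%) and 1 fell (3.23%), against 11.8% and 10.6% of all genes tested (median -0.04).

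Ribosomal protein genes were higher almost throughout. Of 67 cytosolic members 65 rose and 0 fell (median 0.84), the same without irradiated library 1, and 66 had groups that did not overlap. Most of the changes were under 2-fold, with 12 members past it. Rplp0 (ENSRNOG00000001148), a protein of the ribosomal stalk, measured 576, 563, 607 and 625 CPM in the 4 sham libraries and 1416, 1403, 1385 and 1261 CPM in the 4 irradiated libraries. It rose 2.31-fold (1.204 ± 0.07 on the log2 scale, edgeR adjusted p = 3.53e-09). Rps18, of the small subunit, measured 158, 154, 156 and 169 CPM in sham and 337, 361, 327 and 345 CPM in irradiated libraries and rose 2.15-fold. Reads of ribosomal protein genes can be shared with their processed pseudogenes. Nuclear genes of oxidative phosphorylation rose in 26 of 64 cases with 0 falls (median 0.22), 44 with library totals as the only scaling and 16 without sham library 2. Cox4i1, a subunit of cytochrome c oxidase, measured 206, 174, 179.5 and 213 CPM in sham and 311, 274, 306 and 309 CPM in irradiated libraries. The mitochondrial genome had 5 of 13 genes higher and 0 lower (median 0.37), with 8 higher by library totals. Mt-co3 rose 1.61-fold from 533 ± 24.8 to 858 ± 125 CPM, in libraries whose mitochondrial share was higher throughout. Antioxidant genes rose in 10 of 22 cases (median 0.46), 6 without irradiated library 1 or without sham library 3. Mgst1, a membrane glutathione transferase, rose 8.36-fold from 3.63 ± 1.83 to 30.1 ± 7.87 CPM, Sod2, the mitochondrial superoxide dismutase, 2.04-fold, and Txn1, thioredoxin, 1.53-fold. Glycolysis genes had no common direction, with 4 of 23 higher and 5 lower (median 0.03), or 8 higher and 5 lower with library totals (median 0.20). The hexokinase genes moved in opposite directions: Hk2 fell 1.52-fold from 406 ± 17.7 to 267 ± 20.8 CPM, Hk1 fell 1.41-fold, and Hk3, the hexokinase of myeloid cells, measured 0.249, 1.64, 0.660 and 0.706 CPM in sham and 26.01, 23.5, 16.5 and 16.9 CPM in irradiated libraries.

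Of 23 genes of cholesterol synthesis and uptake 12 fell and 0 rose (median -0.48), and 10 fell without irradiated library 1. Msmo1 (ENSRNOG00000032297), a sterol demethylase of the pathway, measured 212, 210.5, 228 and 209.6 CPM in the 4 sham libraries and 83.3, 109, 110.2 and 114 CPM in the 4 irradiated libraries. It fell by 1.04 ± 0.10 on the log2 scale (edgeR adjusted p = 8.73e-07). Hmgcs1, which makes HMG-CoA, fell 1.94-fold from 76.4 ± 11.1 to 39.4 ± 4.72 CPM, and Srebf2, the transcription factor that drives the pathway, fell 1.51-fold. Fdft1, squalene synthase, and Sqle, squalene epoxidase, fell 2.01-fold and 1.77-fold. Soat1, which esterifies cholesterol for storage, rose instead, with 128, 125, 123 and 114 CPM in sham and 407, 319, 275 and 250.4 CPM in irradiated libraries (2.55-fold), and Plin2, the coat of lipid droplets, rose 1.87-fold. Over 22 genes of lipid efflux, storage and fatty acids 5 rose and 3 fell (median -0.04), and with library totals 7 rose and 0 fell (median 0.13). Of 43 lysosomal genes 12 fell and 4 rose (median -0.08, or 0.09 with library totals, by which 13 rose and 7 fell). Lamp2, a lysosomal membrane protein, fell 1.72-fold, Ctsl, the protease cathepsin L, fell 1.79-fold from 1892 ± 219.8 to 1059 ± 240.3 CPM, and Galc, which degrades galactosylceramide of myelin, rose 1.71-fold. In iron handling 1 of 15 genes rose (6.67%) and 2 fell (13.3%), against 11.8% and 10.6% of all genes tested (median -0.09, or 0.07 with library totals). Ftl1, ferritin light chain, rose 1.37-fold, and Tfrc, the transferrin receptor, and Steap4, a metalloreductase, fell 1.76-fold and 1.98-fold.

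Annexins and S100 proteins, calcium-binding proteins of membranes and cytoskeleton, gave 8 increases among 15 genes and 1 fall (median 1.21). Anxa5, which binds phosphatidylserine, measured 7.47, 7.21, 10.3 and 8.12 CPM in the 4 sham libraries and 61.7, 59.9, 56.6 and 52.9 CPM in the 4 irradiated libraries. It rose 6.97-fold (2.80 ± 0.21 on the log2 scale, edgeR adjusted p = 4.37e-08). Anxa6 rose 6.10-fold from 13.6 ± 2.13 to 83.1 ± 12.4 CPM, Anxa4 4.14-fold and S100a11 4.65-fold. Vim, the intermediate filament vimentin, measured 24.0, 31.9, 32.2 and 28.3 CPM in sham and 171, 157, 145 and 144 CPM in irradiated libraries and rose 5.30-fold. Of 26 genes of adhesion, integrins and junctions 8 rose and 7 fell (median 0.13). Cd44, the hyaluronan receptor, rose 6.21-fold from 4.37 ± 1.09 to 27.2 ± 2.88 CPM. Of 15 immediate early genes 6 rose and 1 fell (median 0.76). Atf3, a stress-induced factor, measured 1.37, 2.86, 1.27 and 2.62 CPM in sham and 16.9, 14.5, 12.6 and 12.9 CPM in irradiated libraries, and Jun rose 1.53-fold. In stress of the endoplasmic reticulum and of amino acids 3 of 16 genes rose and 4 fell (median -0.19): Asns, asparagine synthetase, rose 5.29-fold from 2.18 ± 1.37 to 11.5 ± 0.781 CPM, and the chaperone gene Hspa5 fell 1.41-fold. Beside the counts given above, leaving out irradiated library 1 moved oxidative phosphorylation from 26 to 20 increases, glycolysis from 4 to 2 increases, falls in lipid handling from 3 to 1, in complement from 4 to 2 and in chemokine receptors from 3 to 1. The other pathway lists moved by at most 1 gene in either direction. Beside the counts given above, library totals as the only scaling moved the increases of checkpoint genes from 4 to 6, of p53 targets from 8 to 12 and of chromatin regulators from 3 to 5 (median 0.12), and the falls of primed genes from 5 to 3, of phagocytic receptors from 5 to 3, of MHC class I genes from 3 to 1 and of chemokine receptors from 3 to 1. The same scaling moved the increases of type I interferon genes from 24 to 32 and of cell cycle genes from 16 to 21. Increases of annexins and S100 genes went from 8 to 11 and of pattern recognition genes from 7 to 10. Falls of homeostatic genes went from 23 to 20 and of cholesterol genes from 12 to 9. Other movements with this scaling are not listed.

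**Figure D3:**
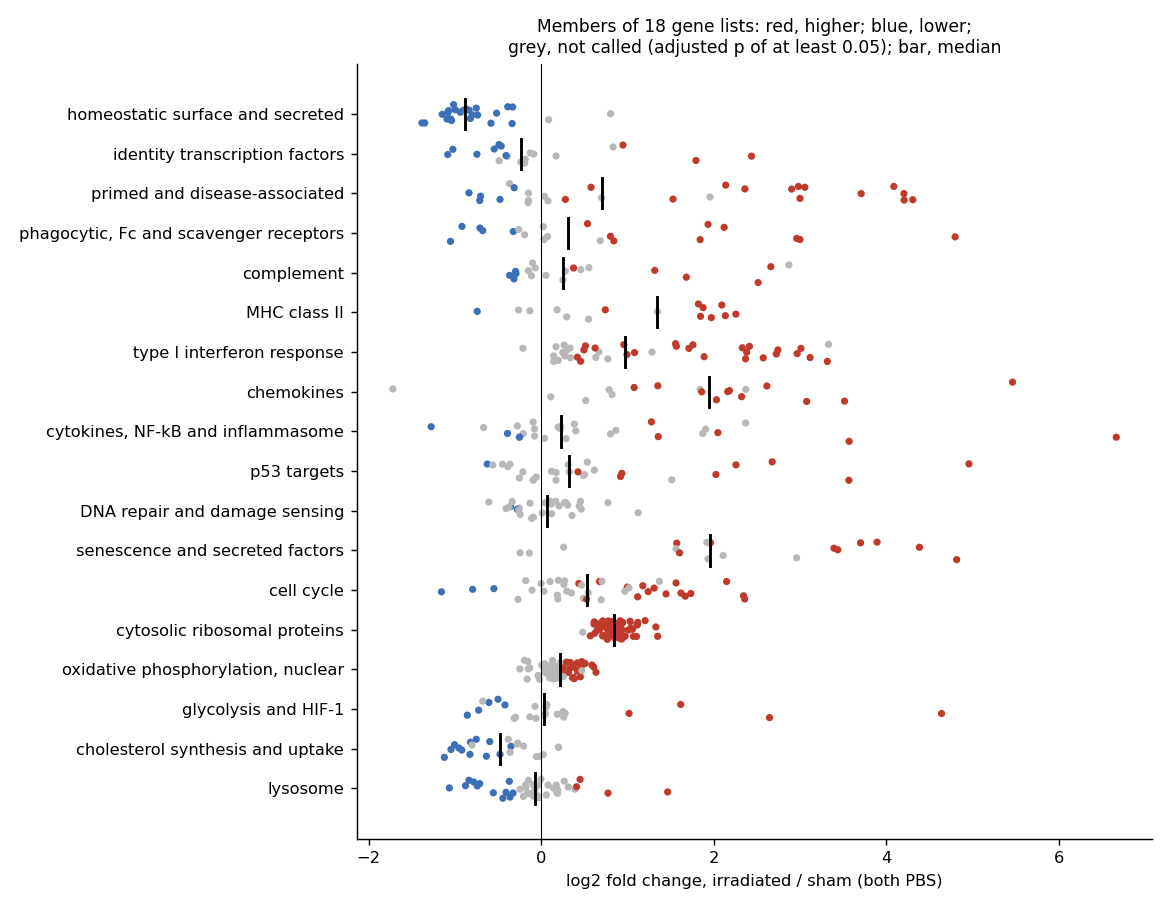
Irradiation effect with PBS (log2 fold change, x axis) of the tested members of 18 gene lists (y axis), 1 point per gene, red where called higher, blue where called lower and grey where not called, with the list median as a bar. Genes at 0 in a whole group are drawn at their bound. The medians run from -0.88 for the homeostatic list to 1.96 for senescence and secreted factors.

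Most tested markers of border-associated macrophages, monocytes, T cells and NK cells were higher in the irradiated libraries. A gate for high CD11b and intermediate CD45 is meant to remove most T cells, which carry little CD11b, and cells with high CD45 such as blood monocytes and most lymphocytes. How far it did so in these samples was not tested. Genes of border-associated macrophages, which line vessels and meninges, rose in 11 of 12 cases with 0 falls, against 11.8% of all genes, and summed to 486, 583, 565 and 563 CPM in sham and 1996, 2033, 2050 and 1670 CPM in irradiated libraries. Clec10a, a C-type lectin of these macrophages, measured 52.7, 60.3, 69.0 and 67.5 CPM in the 4 sham libraries and 474, 456, 409.9 and 379 CPM in the 4 irradiated libraries. It rose 6.89-fold (2.78 ± 0.23 on the log2 scale, edgeR adjusted p = 3.53e-07). Folr2, a folate receptor, rose 5.25-fold from 25.0 ± 4.16 to 132 ± 21.99 CPM, Pf4, platelet factor 4, 3.17-fold, and Dab2, an endocytic adaptor, 3.80-fold. Mrc1 and Cd163 are defining receptors of border-associated macrophages and were chosen after their values were seen. Mrc1 measured 82.2, 77.0, 94.3 and 88.0 CPM in sham and 332, 310.1, 341 and 241 CPM in irradiated libraries. Cd163 measured 20.5, 14.5, 20.9 and 16.9 CPM in sham and 91.5, 66.5, 92.1 and 66.2 CPM in irradiated libraries. Monocyte genes rose in 11 of 16 cases (sums of 301, 223, 281 and 308 CPM and 592, 595, 726 and 708 CPM). Ccr2, the receptor that brings monocytes into tissue, measured 14.7, 8.79, 16.3 and 14.9 CPM in sham and 35.5, 37.8, 58.0 and 43.9 CPM in irradiated libraries, and Itga4, an integrin of monocytes that resident microglia largely lack, rose 4.81-fold.

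T cell genes rose in 10 of 13 cases and NK and cytotoxic genes in 12 of 12. Without irradiated library 1 the counts were 8 and 11. The T cell sums were 12.6, 8.23, 11.7 and 12.6 CPM in sham and 60.7, 34.2, 42.0 and 75.0 CPM in irradiated libraries, and the NK sums 25.4, 18.6, 20.2 and 33.0 CPM and 232, 133, 169.8 and 271 CPM. Cd3e, a chain of the T cell receptor complex, was at or near 0 in sham, with 0.249, 0.0511, 0 and 0.0504 CPM, and measured 2.54, 1.59, 1.28 and 5.50 CPM in irradiated libraries. Klrk1, the activating receptor NKG2D, measured 3.55, 6.90, 4.57 and 5.44 CPM and 43.8, 43.7, 38.3 and 78.6 CPM, with irradiated library 4 the highest. The part of these cells in the changes of the lists above was not tested. Lists overlap: 53 of the tested genes stand in more than 1 list and 22 in a pathway list and a marker list. The phagocytic and scavenger receptor list shares 4 genes with the border-associated macrophage markers, among them Mrc1, Cd163 and Stab1, and all 4 were higher, so that without them 5 of its genes rose. Chemokines share Ccl5 with the NK markers, and chemokine receptors share Ccr2, Ccr7 and Cxcr2 with marker lists. Of 10 neutrophil genes 1 rose and 1 fell (median 1.16, or 0.53 without irradiated library 1). The gene that fell was Csf3r, which made up most of the summed level, and the gene that rose was the chemokine receptor gene Cxcr2, with 1.06, 0.511, 0.0471 and 0.554 CPM in sham and 2.98, 3.91, 2.70 and 2.71 CPM in irradiated libraries. Without Csf3r the neutrophil sums were 24.5, 47.4, 17.3 and 10.8 CPM in sham and 119, 20.8, 37.2 and 20.1 CPM in irradiated libraries, and the groups overlapped. Of 10 endothelial genes 4 fell and 1 rose, and 5 were not called (median -0.18, or -0.02 with library totals). The list summed to 284 to 373 CPM against 597 to 703 CPM in sham, a sum made up mostly of a few abundant genes, whereas the mean log2 CPM over its genes overlapped, at 2.79 to 3.79 in sham and 2.63 to 3.52 in irradiated libraries. The gene that rose was Kdr, a receptor for VEGF, with 0, 0, 0 and 0.303 CPM in sham and 0.825, 1.02, 1.52 and 0.743 CPM in irradiated libraries (edgeR adjusted p = 0.0294), and its call was lost when sham library 1, 2 or 3 or irradiated library 2 or 3 was left out (0.0514 to 0.086). Tek, the angiopoietin receptor, measured 155, 153, 158 and 159 CPM in sham and 57.1, 77.7, 51.5 and 66.2 CPM in irradiated libraries, and Pecam1, which encodes CD31, 210.3, 165, 235 and 193 CPM and 74.9, 90.8, 124 and 92.2 CPM. Of 12 neuron markers 0 were called by edgeR, and 1 was called higher with library totals. Choroid plexus markers summed to 275, 4.55, 1.55 and 80.7 CPM in sham and 610.5, 38.9, 22.7 and 285 CPM in irradiated libraries, without a call, with library 1 the highest in each group.

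**Figure D4:**
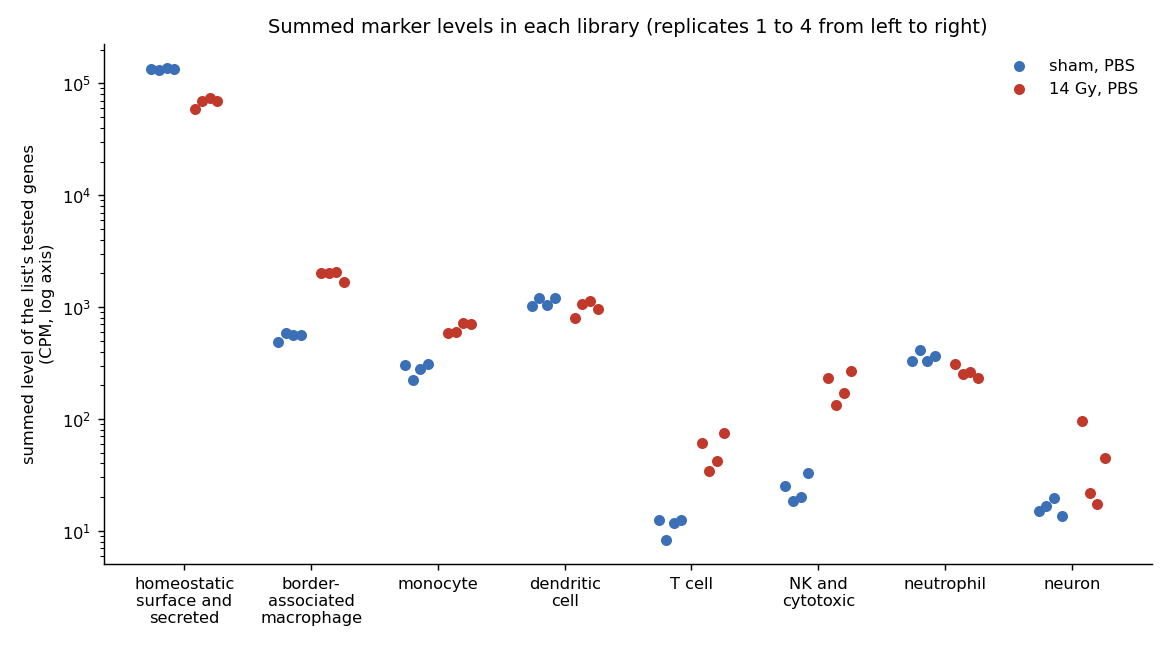
Summed CPM of the tested genes of 8 lists (log axis) in each sham (blue) and irradiated (red) library. Homeostatic genes take 130700 to 138100 CPM in sham and 59400 to 74550 CPM in irradiated libraries, and the border-associated macrophage sums of the irradiated libraries lie above those of sham.

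The irradiation effect was measured a second time in libraries that share none with the 8 above, from rats that received LPS in place of PBS, where 3558 genes (28.9%) were called. Both readings came from 1 fit over all 16 libraries with a shared estimate of the spread, so their calls are not fully independent. With each set of 8 libraries fitted alone, 1806 genes were called in both readings in the same direction, against 1985 with the shared fit. Of the 1453 genes higher with PBS 1373 (94.5%) were also higher in irradiated than in sham rats given LPS, 1112 (76.5%) passed the test there in the same direction, against 15.6% of all genes tested, and 16 passed it in the opposite direction. These 1112 genes were 57.7% of all increases called with LPS. Of the 1301 genes lower with PBS 1218 (93.6%) had the same sign, 873 (67.1%) were called lower, against 13.3% of all genes, and 9 were called higher, and the 873 were 53.5% of the falls called with LPS. The median change of the genes higher with PBS was 1.26 with PBS and 1.12 with LPS, and of the lower genes -0.53 and -0.49. The LPS libraries were deeper in part, with up to 61435103 counts. Irradiated LPS library 1 stood apart as irradiated PBS library 1 did. Its mitochondrial share was 1.329%, the highest of the irradiated LPS libraries. Its neuron markers summed to 135.2 CPM, against 15.68 to 34.48 CPM in the other irradiated LPS libraries. Without it 1806 genes were called in both readings in the same direction, against 1985 with all libraries. The agreement without library 1 of both irradiated groups was not tested. Homeostatic genes were lower in 22 of 26 cases with LPS (median -1.21), and Tmem119 fell by 2.16 ± 0.19 on the log2 scale there. Clec7a rose by 4.82 ± 0.28 with LPS and 4.20 ± 0.27 with PBS, Kcnn4 by 4.36 ± 0.23 and 4.51 ± 0.24, and Cdh23 fell by 2.90 ± 0.15 and 2.27 ± 0.14.

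In the test of the difference itself, the interaction of irradiation with the injection, 170 of 12308 genes (1.38%) were called. That count moved with single libraries: it was 112 without sham PBS library 1, 107 without sham PBS library 3, 113 without irradiated PBS library 3 and 113 without irradiated LPS library 4. Cdkn1a was among them: its increase was 3.56 ± 0.27 with PBS and 1.91 ± 0.24 with LPS on the log2 scale, a difference of -1.66 ± 0.35 (edgeR adjusted p = 0.0244). Its mean level was 3.87 CPM with PBS and 19.76 CPM with LPS in sham libraries, and 45.51 and 74.26 CPM in irradiated libraries. Egr1, an immediate early gene, rose by 1.38 ± 0.30 with PBS and stood at -1.72 ± 0.28 with LPS, a difference of -3.09 ± 0.41 (edgeR adjusted p = 0.000944). Sod2 rose more with LPS (2.65 ± 0.17) than with PBS (1.02 ± 0.16, edgeR adjusted p of the difference = 0.00117). Cholesterol genes differed too: Sqle fell by 0.83 ± 0.11 with PBS and stood at 0.05 ± 0.11 with LPS (edgeR adjusted p of the difference = 0.0063), and Fdft1 fell by 1.00 ± 0.11 with PBS and stood at -0.17 ± 0.11 with LPS (edgeR adjusted p of the difference = 0.00823). Cxcr3 rose by 2.18 ± 0.28 with PBS and stood at -0.09 ± 0.26 with LPS (edgeR adjusted p of the difference = 0.00521).

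**Figure D5:**
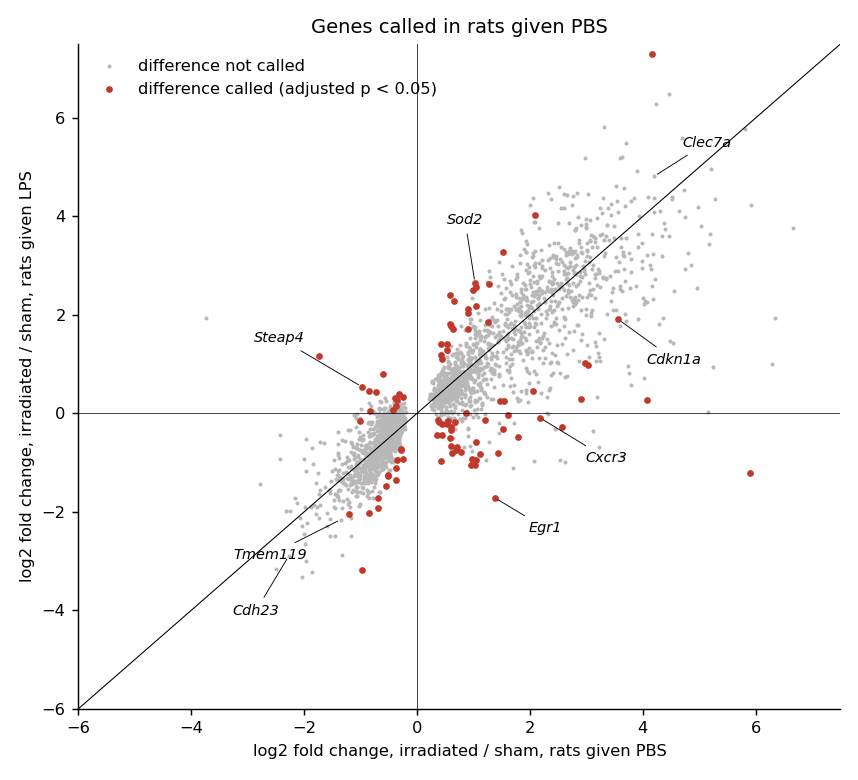
Irradiation effect with PBS (x axis) against the irradiation effect with LPS (y axis), both as log2 fold changes of irradiated over sham libraries, for the 2734 genes called with PBS that have counts in every group. Colour marks the 90 genes for which the difference between the effects was called. Over all called genes, including 20 that are not drawn, 1373 of the 1453 genes higher with PBS and 1218 of the 1301 lower genes had the same sign with LPS.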

How the data were processed

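The deposited values are counts of reads per gene, and the tools listed in the submitters' processing notes are HTSeq 2.0.2, fastp 0.23.2 and FastQC 0.11.9, with mRatBN7.2 as the build. Aligner, annotation and strand setting were not given in the sources used here. Reads of overlapping genes and near-identical copies may therefore be mixed. The matrix held 21842 symbols, and 0 of 349472 cells differed from the single-sample files. In R 4.3.3 with edgeR 4.0.16 (TMM, filterByExpr, robust quasi-likelihood fit over all 16 libraries) 12308 genes were tested, with Benjamini-Hochberg adjustment over all of them and a threshold of 0.05. SE values are the log2 fold change divided by the square root of F, and log2 CPM used a prior count of 2. The code was also run on simulated counts with changes set in a small part of the genes, and that run is not used as support for the results. The members and the 52 gene lists (1086 genes, 936 tested) were chosen with earlier results of these data known. Genes were named by rule: the 14 largest changes each way among called genes whose log2 CPM averaged 3 or more and whose groups did not overlap, up to 5 members of each list with the smallest p, and a panel of 30, of which 1 gene is not reported here. Alternatives were DESeq2 1.42.0, limma 3.58.1 voom, other scaling and filters, a replicate block, a 1.5-fold test and leaving out each library.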

Additional observations from a re-analysis of the deposited data

Results flagged for a closer look

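A Dixon test of the most extreme library in each group of 4 marked 20 of 312 groups (6.41%) among the genes named above, and chance alone marks about 1 in 20. In sham libraries the marked values were Cdkn1a at 5.35 CPM, Cdkn2a at 0.06221 CPM (both the highest, library 1), Cd68 at 115.2 CPM and Cenpa at 2.737 CPM (both the lowest, library 1), Mef2c at 814.4 CPM and Tgfbr1 at 4175 CPM (both the highest, library 2), Kdr at 0.3025 CPM (the highest, library 4), Msmo1 at 228.1 CPM (the highest, library 3) and Eng at 266.6 CPM (the lowest, library 3). In irradiated library 1 Blnk at 495 CPM, Msmo1 at 83.3 CPM, P2ry13 at 692.1 CPM and Pmaip1 at 7.613 CPM were lowest and Gfap at 38.32 CPM was highest. In the other irradiated libraries Cox4i1 was lowest at 273.9 CPM (library 2), Ccl2 at 7.37 CPM and Oas1a at 21.47 CPM were lowest and Rac2 was highest at 330.1 CPM (library 3), and Spon1 was lowest at 17.36 CPM and Klrk1 highest at 78.58 CPM (library 4).

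The irradiation effect differed between rats given LPS and rats given PBS in the edgeR interaction test for 10 of the genes named above. The log2 fold change with LPS minus that with PBS was -3.09 for Egr1, -2.27 for Cxcr3, -1.66 for Cdkn1a and -0.76 for Blnk. It was 1.63 for Sod2, 1.52 for Steap4, 1.22 for Ighm, 0.88 for Sqle, 0.84 for Fdft1 and 0.81 for Plin2.

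Gene IDs without a symbol, which enter no comparison above, took 2.23%, 2.21%, 2.14% and 2.28% of the counts of irradiated libraries 1 to 4, above the 1.85% to 1.94% of the sham libraries. When counts were tested per gene ID, 150 of 1208 such IDs (12.4%) were called by edgeR, 87 higher and 63 lower.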

How the results depend on the processing

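The number of genes changed with PBS was 2754 and lay between 2583 and 3241 under DESeq2, limma voom with sample weights, other scaling, other filters, no robust moderation, a fit of the 8 libraries alone and counts per gene ID. A test against a fold change of 1.5 left 783 (634 higher, 149 lower), and library totals alone gave 2254 higher and 685 lower. With that test the LPS pair had 1208 calls (838 higher, 370 lower), 596 genes were called in both pairs in the same direction, and the interaction had 26. DESeq2 gave 417 interaction calls. Leaving out 1 library at a time gave 2201 to 2451 genes with PBS (1228 to 1342 higher, 930 to 1161 lower), 3053 to 3398 with LPS (1690 to 1870 higher, 1361 to 1556 lower), 1699 to 1960 called in both and 107 to 198 for the interaction. Of the 156 genes named, 43 lost their call against a fold change of 1.5, and 0 reversed under any alternative run. Apoe, Xrcc5, Parp1, Cxcl1 and Kdr lost a call and Itgam and Mdm2 gained one, with the values given above, and the cause was not tested. The labels do not say that a replicate number marks anything shared between groups. Deviations of same-numbered libraries correlated with r of 0.199, 0.091, 0.069 and 0.035, and not every library correlated best with its own number. With the replicate block 2895 genes were called (1515 higher, 1380 lower), and of the genes named only the call of Itgam changed. Choroid plexus sums followed the replicate numbers in the same order in all 4 groups, a hint from the data of something shared, and had 0 calls with the block too (smallest edgeR adjusted p = 0.0767), while neuron markers had 1 increase and astrocyte markers 2. Genes under about 1 CPM rest on few counts, and listed genes below the filter were not tested. With 4 libraries a side small changes could be missed.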

Other observations

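Smaller lists completed the account of other cell types and pathways. Of 9 dendritic cell genes 5 were higher and 0 lower (median 0.95), 3 without irradiated library 3, while the summed level was 1028 to 1206 CPM in sham and 797 to 1128 CPM in irradiated libraries. Clec9a, a receptor for dead cells on cross-presenting dendritic cells, measured 0.933, 3.02, 0.707 and 1.26 CPM in sham and 6.53, 9.30, 14.4 and 5.91 CPM in irradiated libraries, and Ccr7, which guides migration to lymph nodes, 1.18, 1.58, 1.70 and 0.655 CPM and 12.0, 19.7, 13.8 and 15.8 CPM. Both rose, Clec9a 6.08-fold and Ccr7 11.9-fold. Of 8 B cell genes 2 were higher (1 without irradiated library 1) and 2 lower: Ighm, the immunoglobulin mu heavy chain, rose 1.86-fold from 65.9 ± 12.7 to 123 ± 20.6 CPM, and the adaptor gene Blnk fell 1.42-fold from 818 ± 16.8 to 575 ± 53.8 CPM. Of 8 mast cell genes 1 was tested, Kit, at 0.498, 0.818, 0 and 0.151 CPM in sham and 2.85, 2.84, 5.70 and 3.49 CPM in irradiated libraries.

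Of 12 oligodendrocyte genes 2 were higher and 1 lower (median 1.12), and without irradiated library 1 the counts were 1 and 1 (median 0.28). Cnp, a myelin enzyme also expressed by microglia, measured 772, 602, 807 and 584 CPM in sham and 325, 359, 348 and 373 CPM in irradiated libraries and fell 1.97-fold, and Mal, a proteolipid of myelin and of T cells, rose 4.59-fold. Of 10 astrocyte genes 1 was higher and 1 lower (median 1.42), or 1 and 0 without irradiated library 1 (median 0.62), and Gfap, the astrocyte filament, measured 2.24, 1.99, 1.89 and 1.56 CPM in sham and 38.3, 6.98, 5.55 and 10.5 CPM in irradiated libraries, with library 1 far above the rest. Of 4 mural and fibroblast genes 1 was higher, 0 without irradiated library 1, and 0 of 2 oligodendrocyte precursor genes and 0 of 3 red blood cell genes were called. Chemokine receptors were higher in 4 of 10 cases and lower in 3 (median 0.64), and NADPH oxidase genes were higher in 4 of 8 and lower in 1 (median 0.35). Rac2, a GTPase that activates the oxidase, rose 1.36-fold, and Hvcn1, the proton channel that supports it, fell 1.34-fold from 174 ± 15.4 to 129.8 ± 8.56 CPM.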
